A study of Homo sapiens with 6 samples.

Results

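The NRF2 target genes described here are 9 antioxidant and detoxification genes driven by the transcription factor NRF2: NQO1, HMOX1, GCLC, GCLM, TXNRD1, SRXN1, AKR1B10, AKR1C1 and OSGIN1. They were taken by name, as all probe sets whose single gene symbol in the platform's probe table is one of these genes. That gave 20 probe sets of 41091 with exactly 1 symbol, and 9 genes of 19775. The members and the wider lists were chosen with earlier results of these data known. Counts over them beside the shares of all genes are therefore descriptions and not tests. The samples were RT-112 cells, a line of human bladder cancer, profiled on 6 oligonucleotide arrays after silencing of PPP2R2A, a regulatory subunit of protein phosphatase 2A. The scramble group received a scramble siRNA, and the other groups received siPPP2R2A_1 or siPPP2R2A_2, here siRNA 1 and siRNA 2. Each group had 2 arrays, lettered A and B. All cells of all groups were plated at 50% confluence, given 50 nM siRNA with the reagent RNAiMAX, transfected with the same dose a day (24 h) later and lysed after a further 24 h. The duplicates are technical ones by the series' design text. Each p-value therefore measures spread among these arrays, not among experiments, and having so few arrays limits the precision. The model is 1 cell line and has no untransfected group.

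NRF2, encoded by NFE2L2, is held at a low level in unstressed cells by KEAP1, an adaptor that hands it to a ubiquitin ligase built on CUL3. Oxidants and electrophiles modify KEAP1, NRF2 then accumulates, pairs with a small MAF protein and binds antioxidant response elements in the control regions of its target genes, while BACH1 competes for the same elements. The targets supply glutathione (GCLC and GCLM), reduce thioredoxin and peroxiredoxins (TXNRD1 and SRXN1), detoxify quinones and carbonyls (NQO1, AKR1B10 and AKR1C1) and degrade heme (HMOX1). In many epithelial tumours, bladder tumours among them, this pathway is active.

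The core of the antioxidant response element was looked for in the 250 bases before the annotated start of each gene, because NRF2 acts through this element. RefSeq promoter windows (GRCh38.p14) were found for 7 of the 9 genes, all but HMOX1 and AKR1B10. The core, TGACNNNGC on either strand, was present in 2 of the 7 windows and in 10.91% of 35116 such windows of all genes. An element of the type bound by AP-1, TGACTCA on either strand, was present in 1 of the 7 and in 4.2% of all windows, and overlapped no core. The core in the GCLM window (TGACTAAGC, read on the strand opposite to the gene, chr1:93909456-93909464) lay 34 to 26 bases before the start. The core in the TXNRD1 window (TGACTTCGC, chr12:104215680-104215688) lay 99 to 91 bases before it. Both windows are shown, with that of OSGIN1, which holds the AP-1 type element, and that of AKR1C1, which holds neither. AKR1C1 was picked for its signal below scramble with siRNA 2, a difference that did not pass the test. The windows of NQO1, GCLC and SRXN1 also hold neither. These genes stood at log2 differences of -0.05, -0.10 and -0.05 with siRNA 2. Each window shown runs 5′ to 3′ on the strand of the gene and capitals mark the core or the AP-1 type element. They span chr1:93909431-93909680 (minus strand, GCLM), chr12:104215529-104215778 (plus strand, TXNRD1), chr16:83952990-83953239 (plus strand, OSGIN1) and chr10:4963165-4963414 (plus strand, AKR1C1). A match is a description of these letters and not a measured site, and no match says only that the letters are not in this window.
GCLM: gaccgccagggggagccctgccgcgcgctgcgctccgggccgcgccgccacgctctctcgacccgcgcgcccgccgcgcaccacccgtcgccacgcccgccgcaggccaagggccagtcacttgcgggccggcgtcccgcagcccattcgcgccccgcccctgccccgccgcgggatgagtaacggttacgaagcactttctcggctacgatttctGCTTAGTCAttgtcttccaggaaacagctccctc
TXNRD1: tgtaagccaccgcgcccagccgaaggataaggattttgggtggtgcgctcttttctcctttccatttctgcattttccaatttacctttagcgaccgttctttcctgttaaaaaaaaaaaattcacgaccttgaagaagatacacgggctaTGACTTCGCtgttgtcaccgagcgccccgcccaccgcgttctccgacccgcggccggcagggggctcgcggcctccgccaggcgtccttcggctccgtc
OSGIN1: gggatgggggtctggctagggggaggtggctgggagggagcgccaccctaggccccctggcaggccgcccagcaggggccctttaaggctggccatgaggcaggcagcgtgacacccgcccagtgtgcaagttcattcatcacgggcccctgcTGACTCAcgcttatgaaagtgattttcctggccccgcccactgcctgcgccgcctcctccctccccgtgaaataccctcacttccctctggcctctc
AKR1C1: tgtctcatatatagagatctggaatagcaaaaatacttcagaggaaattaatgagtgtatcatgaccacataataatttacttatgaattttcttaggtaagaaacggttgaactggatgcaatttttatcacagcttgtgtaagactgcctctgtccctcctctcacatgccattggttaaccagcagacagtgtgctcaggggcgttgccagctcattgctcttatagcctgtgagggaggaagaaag

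The deposited values are linear signal intensities per probe set, scaled so that the trimmed mean was close to 500.07 on every array. For each gene the probe set of highest mean on the scale log2(signal + 1) was used, the scale of all differences below, and the gene was tested when it exceeded the array median (69.3 to 76.2) on at least 2 arrays. All 9 genes and 16 of the 20 probe sets were tested, among 12735 genes and 23969 probe sets. A gene was called at a limma adjusted p under 0.05, Benjamini-Hochberg over all genes, and a change of at least 1.5-fold. PPP2R2A itself had signals of 1381 and 1589 in the scramble group, 336 and 397 for siRNA 1 and 509.96 and 533 for siRNA 2, so on this probe set (202313_at) the knockdown matched the labels on every array. Its log2 differences were -2.02 and -1.51 (limma adjusted p = 0.0403 and 0.0461), and with any 1 of the 6 arrays left out the adjusted p was 0.139 to 0.183 with siRNA 1 and 0.124 to 0.196 with siRNA 2. A second probe set, 228013_at, read 446 and 434, 72.4 and 109, and 105 and 112 in the same order. The third, 236492_at, read 287 and 281, 334 and 221, and 179 and 272, with 1 siRNA 1 array above both scramble arrays. No PPP2R2A probe set was called over all probe sets (adjusted p = 0.0768 and 0.0814 for 202313_at). The 8 epithelial markers (KRT7, KRT8, KRT18, KRT19, EPCAM, CDH1, GATA3 and CLDN4) were all tested, with single signals from 1590.4 to 30368. Of the markers of other cells on the array, 3 of 6 for fibroblasts were tested, LUM (4519.9 to 6351), COL1A1 (867 to 1175) and DCN (43.9 to 133), 2 of 4 for endothelium, PECAM1 and CDH5, and 1 of 3 for blood cells, CD3E. CD3E passed the filter through its siRNA 1 arrays alone, at 76.7 and 111. For ACTB the signal near the 3' end over that near the 5' end, a measure of RNA integrity, was on average 5.68 in the scramble group, 7.17 for siRNA 1 and 9.92 for siRNA 2, where array B stood at 12.4. The same ratio of GAPDH had group means of 1.00, 1.01 and 0.972.

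Of the 9 NRF2 targets, 8 read on average above scramble with siRNA 1 and 6 read below it with siRNA 2, and all 9 had a higher mean with siRNA 1 than with siRNA 2. HMOX1 stood above scramble with both siRNAs, and AKR1B10 and AKR1C1 were the farthest below it with siRNA 2. None of these differences passed the test. With siRNA 1, limma called 0 of 9 members, against 0.393% of all genes tested, with siRNA 2 it called 0 against 0.597%, and between the siRNAs it called 0 against 0.212%. For the mean of both siRNAs it called 0 against 0.51%. Of the 16 tested probe sets it called 0 with siRNA 1 (0% of all probe sets), siRNA 2 (0.00417%), between the siRNAs (0%) and for the mean of both (0.0125%). At an unadjusted p under 0.05, 5 probe sets were higher with siRNA 1 (7.41% of all probe sets) and 0 lower (6.3%), 1 was higher with siRNA 2 (9.17%) and 3 lower (8.87%), and 7 were higher with siRNA 1 than with siRNA 2 (8.44%) and 0 lower (7.76%). Of the genes, at the same unadjusted p, 3 members were higher with siRNA 1 (9.55% of all genes were) and 0 lower (6.65%). With siRNA 2, 1 was higher (12% of all genes) and 2 were lower (8.76%). Between the siRNAs, 6 were higher with siRNA 1 (9.16%) and 0 lower (9.53%). For the mean of both siRNAs 1 was higher (11.1%) and 1 lower (7.44%). The log2 difference was above 0 for 8 of 9 members with siRNA 1 (52.2% of all genes) and for 3 of 9 with siRNA 2 (52.4%), and for 4 of 16 probe sets with siRNA 2 (48.6% of all probe sets). The median log2 difference over the 9 genes was 0.22 with siRNA 1, -0.05 with siRNA 2 and 0.28 between the siRNAs, against 0.01, 0.02 and -0.01 over all genes tested. Both contrasts with scramble use the same pair of scramble arrays.

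**Figure D1:**
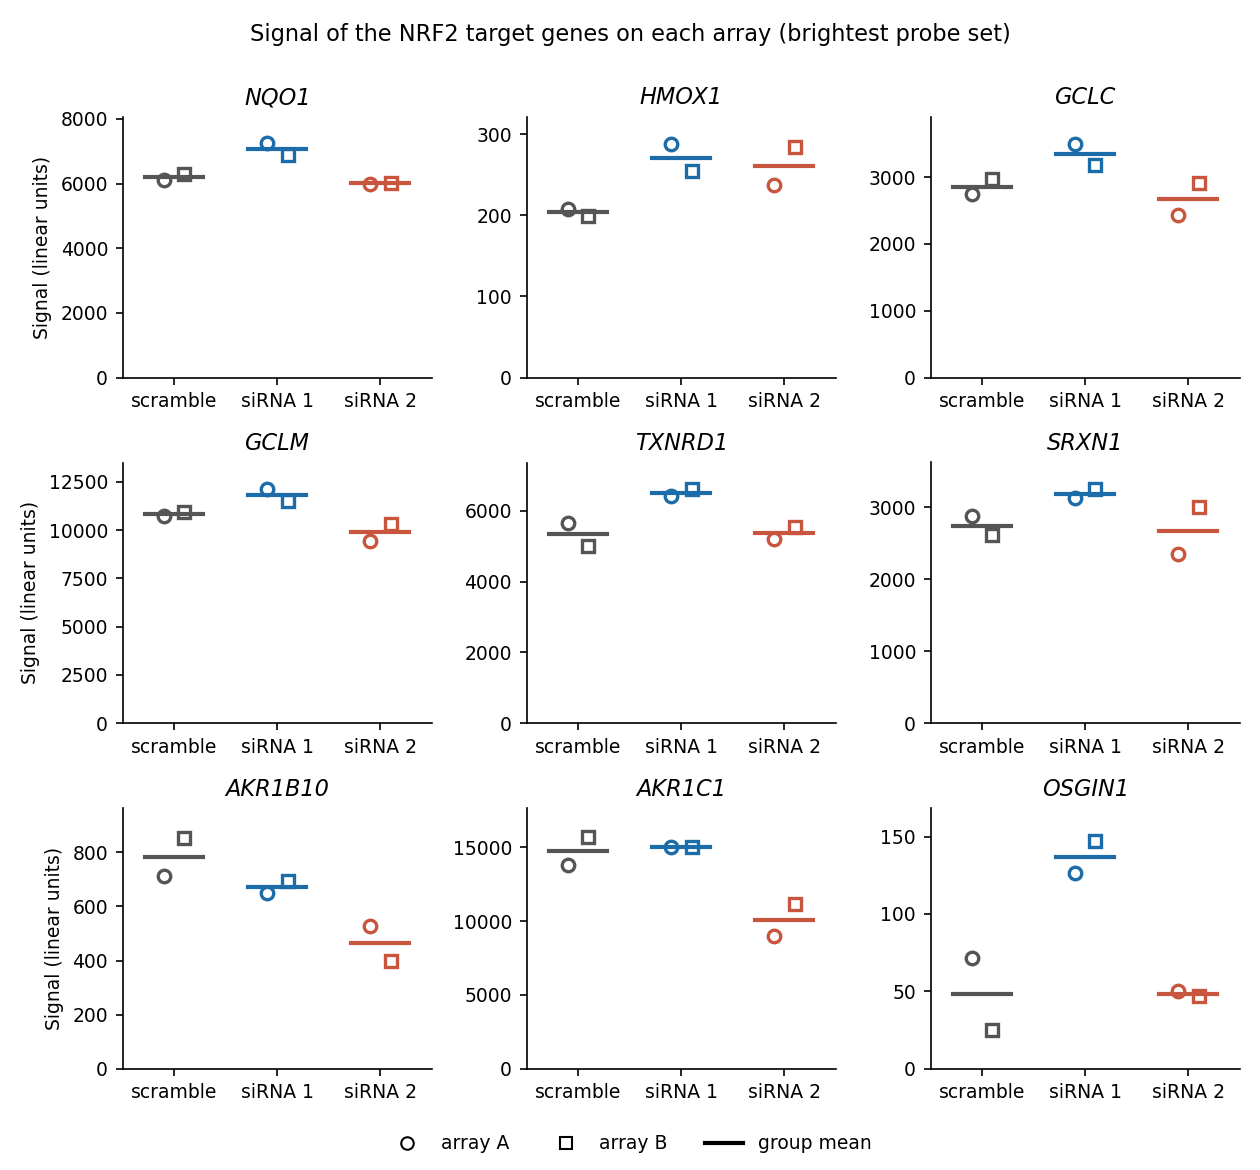
Signal intensity in linear units (y axis, from 0) of the 9 NRF2 target genes on each array, by group (x axis). Circles and squares are arrays A and B and horizontal lines are the means of 2 arrays. The siRNA 1 arrays lie above both siRNA 2 arrays in 8 of 9 genes, HMOX1 being the exception, and AKR1B10 and AKR1C1 are lowest with siRNA 2.

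Of the genes of glutathione synthesis, GCLC encodes the catalytic and GCLM the modifier subunit of glutamate-cysteine ligase, the rate-limiting enzyme of the pathway. GCLM, on its leading probe set 203925_at, read 10726 and 10949.5 with scramble, 12144 and 11507 with siRNA 1, against 9462 and 10298.5 with siRNA 2. The siRNA 1 arrays were the highest and the siRNA 2 arrays the lowest, with no overlap between any of the groups. The log2 difference was 0.13 with siRNA 1 (95% interval -0.10 to 0.35, limma adjusted p = 0.547), -0.13 with siRNA 2 (-0.36 to 0.09, adjusted p = 0.452) and 0.26 between the siRNAs (0.03 to 0.49, adjusted p = 0.226). On its second probe set, where siRNA 1 and scramble overlapped, 236140_at read 2960.5 and 2959 with scramble, 2982 and 2945 with siRNA 1, against 2634 and 2532 with siRNA 2. The third, 234986_at, read 4489 and 3799, 4151 and 4028, and 3967 and 3767 in the same order, with log2 differences of -0.01 and -0.10. The order of siRNA 1 above siRNA 2 was thus seen on all 3 GCLM probe sets, while the position above scramble was seen on 1.

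GCLC, on 202923_s_at, read 2740.2 and 2966 with scramble, 3492 and 3186 with siRNA 1, against 2436 and 2913 with siRNA 2. Both siRNA 1 arrays exceeded all other arrays, and the siRNA 2 and scramble arrays overlapped. The log2 difference was 0.23 with siRNA 1 (adjusted p = 0.455), -0.10 with siRNA 2 (adjusted p = 0.710) and 0.32 between the siRNAs (-0.00 to 0.65, adjusted p = 0.269). A further probe set, 202922_at, read 1531 and 1649 with scramble, 1662 and 1653 with siRNA 1, against 1462 and 1442 with siRNA 2. Its siRNA 1 arrays lay above and its siRNA 2 arrays below both scramble arrays, at log2 differences of 0.06 and -0.13. The remaining GCLC probe set, 1555330_at, read 11.8 to 80.3, exceeded the array median on 1 array and was not tested.

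In the thioredoxin and peroxiredoxin branch, TXNRD1 encodes the cytosolic thioredoxin reductase and SRXN1 encodes sulfiredoxin, which restores overoxidised peroxiredoxins. TXNRD1 read 5656 and 5009.6 with scramble, 6402 and 6612 with siRNA 1, against 5196 and 5544 with siRNA 2. The siRNA 1 arrays stood above all 4 others, while siRNA 2 arrays lay between the scramble arrays. The log2 difference was 0.29 with siRNA 1 (0.03 to 0.55, adjusted p = 0.271), 0.01 with siRNA 2 (-0.25 to 0.27, adjusted p = 0.961) and 0.28 between the siRNAs (0.02 to 0.53, adjusted p = 0.245). SRXN1 read 2874 and 2616 with scramble, 3131 and 3248 with siRNA 1, against 2349.8 and 3001 with siRNA 2. Its siRNA 1 arrays were again the highest, but the siRNA 2 arrays enclosed both scramble arrays. The log2 differences of SRXN1 were 0.22 (-0.16 to 0.59), -0.05 (-0.42 to 0.33) and 0.26 (-0.11 to 0.64), at adjusted p = 0.525, 0.891 and 0.403. Between the siRNAs it was 0.09 without siRNA 2 array A and 0.44 without array B. A second TXNRD1 probe set, 1561080_at, read 2.49 to 10.3 on the 6 arrays, below every array median, and was not tested.

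NQO1, the quinone reductase most widely used as a readout of NRF2, has 3 probe sets. On the brightest, 210519_s_at, it read 6113 and 6295 with scramble (6204 ± 129, SD, n = 2), 7262 and 6885 with siRNA 1 (7073 ± 267), and 5987 and 6029.6 with siRNA 2 (6008 ± 29.9). All siRNA 1 arrays were above and all siRNA 2 arrays below the scramble arrays, although the latter gap was small. Its estimated log2 difference was 0.19 with siRNA 1 (-0.02 to 0.39, adjusted p = 0.336), -0.05 with siRNA 2 (-0.25 to 0.16, adjusted p = 0.784) and 0.23 between the siRNAs (0.03 to 0.44, adjusted p = 0.223). Probe set 201468_s_at read 3735 and 3838, 4739 and 4976, and 3546 and 3929 in the same order, and 201467_s_at read 1421 and 1397, 1648 and 1729.7, and 1407 and 1509. With siRNA 1 both stood above scramble on each array, at log2 differences of 0.36 and 0.26 (adjusted p = 0.274 and 0.349 over all probe sets). With siRNA 2 they were at -0.02 and 0.05, and the groups overlapped. On both, siRNA 2 array B exceeded both scramble arrays.

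HMOX1, heme oxygenase 1, was the member whose arrays all read above scramble with both siRNAs. It read 208 and 199 with scramble (203 ± 6.27, SD, n = 2), 287 and 255 with siRNA 1 (271 ± 23.3), and 238 and 284 with siRNA 2 (261 ± 32.7). All 4 knockdown arrays exceeded both scramble arrays, and the groups of the 2 siRNAs overlapped. On the log2 scale it stood at 0.41 with siRNA 1 (0.08 to 0.74, limma adjusted p = 0.2405), 0.35 with siRNA 2 (0.02 to 0.68, adjusted p = 0.219) and 0.06 between the siRNAs (-0.27 to 0.39, adjusted p = 0.843). The mean of both siRNAs stood 0.38 above scramble (adjusted p = 0.185). HMOX1 is induced through NRF2 but is also released by loss of BACH1. The BACH1 transcript read 1024 and 998 with scramble, 1222 and 1067 with siRNA 1, against 1248 and 1065 with siRNA 2. Its log2 differences were 0.18 and 0.19 (limma adjusted p = 0.549 and 0.454). BACH1 protein was not measured, and a part of BACH1 in the HMOX1 values was not tested.

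OSGIN1, an oxidative stress induced growth inhibitor, had the widest range of group means on dim signals. It read 71.5 and 25.4 with scramble, 126 and 147 with siRNA 1, against 50.2 and 47.1 with siRNA 2. Only array A of scramble and both siRNA 1 arrays exceeded their array medians, so the gene passed the filter largely through the group in which it was high, and both of its siRNA 2 signals lay below the array median. Its log2 difference from scramble was 1.65 with siRNA 1 (0.38 to 2.92, adjusted p = 0.229), 0.18 with siRNA 2 (-1.09 to 1.46, adjusted p = 0.869) and 1.47 between the siRNAs (0.19 to 2.74, adjusted p = 0.223). Without scramble array A the difference with siRNA 1 was 2.38, and without scramble array B it was 0.92, a change in size of over 1.5 times with 1 array. Without scramble array B the difference with siRNA 2 turned to -0.55. Leaving OSGIN1 out of the counts, 7 of 8 members were above 0 with siRNA 1, 2 of them at an unadjusted p under 0.05, and 2 of 8 with siRNA 2. All 8 were above 0 between the siRNAs, 5 at that p, and the medians were 0.20, -0.07 and 0.27.

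**Figure D2:**
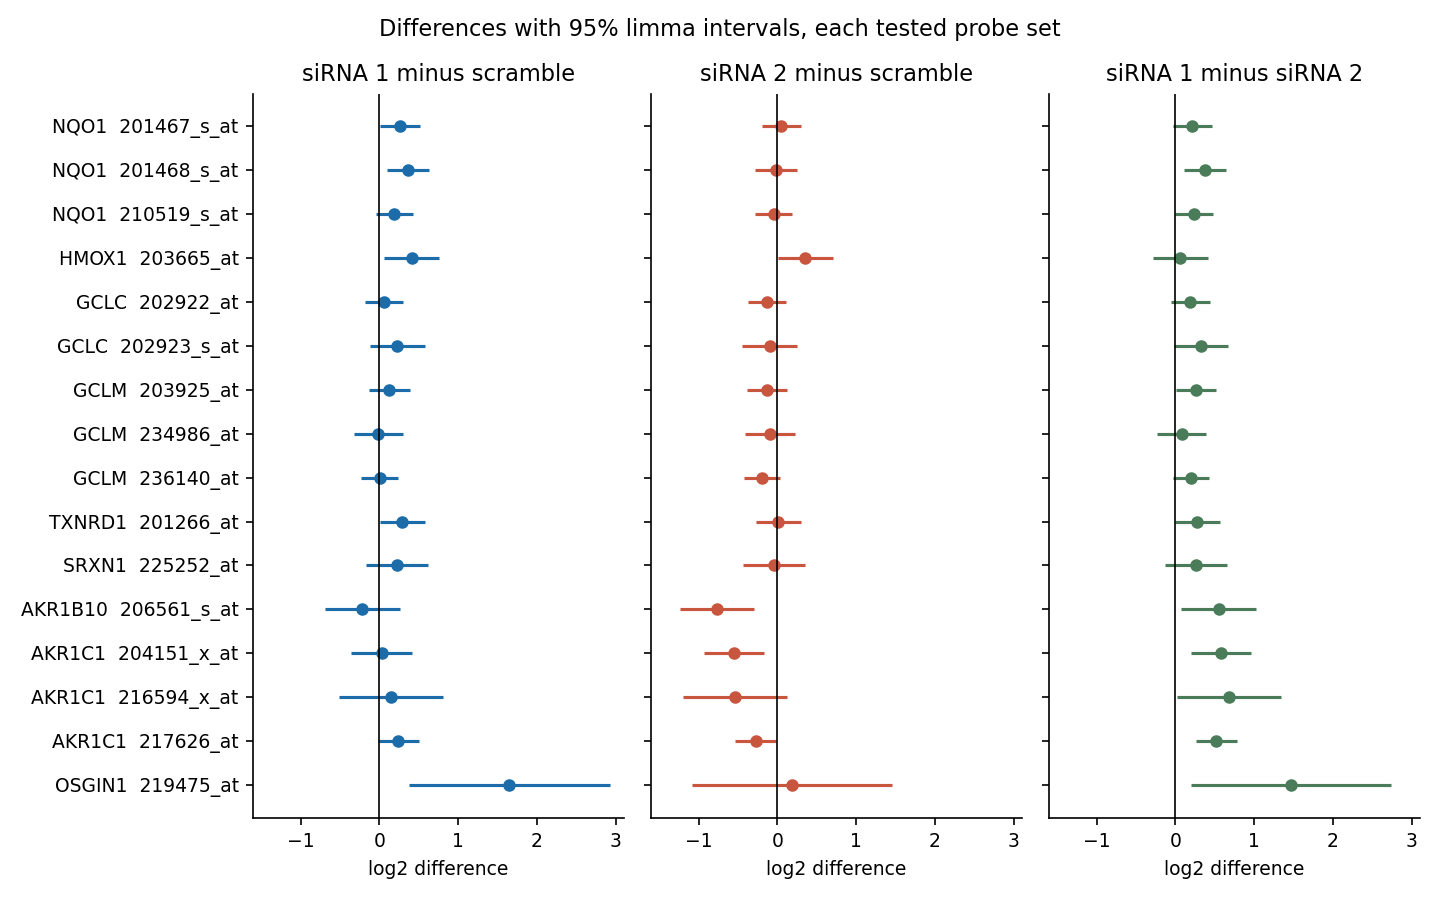
Log2 differences (x axis, points) with 95% limma intervals (lines) for each of the 16 tested probe sets of the 9 genes (y axis), for siRNA 1 minus scramble, siRNA 2 minus scramble and siRNA 1 minus siRNA 2. In the panel for siRNA 1 minus siRNA 2 all 16 points lie above 0, from 0.06 to 1.47, and in the panel for siRNA 2 minus scramble 12 of 16 lie below 0.

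The aldo-keto reductases were the members that stood lowest with siRNA 2. AKR1B10 reduces retinal and other aldehydes, and AKR1C1 reduces steroid ketones, progesterone among them. AKR1B10 read 714 and 852 with scramble (783 ± 98.1, SD, n = 2), 649.96 and 693 with siRNA 1 (672 ± 30.8), and 529 and 398 with siRNA 2 (463 ± 92.1). The siRNA 1 arrays lay below both scramble arrays and the siRNA 2 arrays below those of siRNA 1. This left 85.8% of the scramble mean with siRNA 1 and 59.2% with siRNA 2. In log2 terms it stood at -0.22 with siRNA 1 (-0.67 to 0.24, adjusted p = 0.606), -0.76 with siRNA 2 (-1.22 to -0.31, adjusted p = 0.116) and 0.55 between the siRNAs (0.09 to 1.01, adjusted p = 0.213). With each array left out in turn these ran from -0.34 to -0.09, from -0.97 to -0.56 and from 0.34 to 0.75. A fit whose prior variance followed intensity called 472 of all genes with siRNA 2, against 76 in the main fit. When the prior variance followed intensity, limma called AKR1B10 lower with siRNA 2 (adjusted p = 0.0139, against 0.0139 to 0.309 over all alternatives), the single member called under any of them.

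AKR1C1 was near scramble with siRNA 1 and below it with siRNA 2. Its leading probe set, 204151_x_at, read 13768 and 15703 with scramble, 14984 and 15016 with siRNA 1, against 8991 and 11179 with siRNA 2, which is 68.4% of the scramble mean. The siRNA 1 arrays lay between the scramble arrays and both siRNA 2 arrays lay below all others. The fitted log2 difference was 0.03 with siRNA 1 (-0.34 to 0.39, adjusted p = 0.943), -0.55 with siRNA 2 (-0.92 to -0.19, adjusted p = 0.133) and 0.58 between the siRNAs (0.22 to 0.95, adjusted p = 0.149). With an intensity trend the adjusted p was 0.00825 with siRNA 2 and 0.00737 between the siRNAs, but both differences were under 1.5-fold and so were not called. A second probe set of the same type, 216594_x_at, read 11296 and 16382, 15857 and 14342, and 7969.99 and 11077.5, with wide duplicates in 2 of the groups. The third, 217626_at, is not of a type marked as able to bind related transcripts, and read 276 and 301 with scramble, 335 and 347 with siRNA 1, against 244 and 232 with siRNA 2. There the siRNA 1 arrays stood above and the siRNA 2 arrays below both scramble arrays, at log2 differences of 0.24 and -0.28, and 0.52 between the siRNAs (0.26 to 0.78, adjusted p = 0.137 over all probe sets). The remaining AKR1C1 probe sets, 1555855_at and 1555856_s_at, read 6.09 to 58.4 and 31.8 to 75.6 and were not tested. On the latter, siRNA 2 (72.9 and 75.6) read above siRNA 1 (46.0 and 31.8).

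The AKR1C genes are near-identical neighbours, and signal of 1 can come from another on probe sets of the _x_at type. AKR1C2, on such a probe set, read 10103.5 and 11825 with scramble, 11138 and 11269 with siRNA 1, against 6653 and 7585 with siRNA 2 (log2 difference with siRNA 2 -0.62, adjusted p = 0.0912). An intensity trend in the fit made AKR1C2 a lower call (adjusted p = 0.0026, range over the alternatives 0.0026 to 0.877), among 472 genes called. The mean of its probe sets stood at 0.10. The level of AKR1C3, a prostaglandin F synthase, was 4119 and 5273 with scramble, 6594 and 6417 with siRNA 1, against 3281 and 3806 with siRNA 2, with a log2 difference of 0.48 with siRNA 1 (adjusted p = 0.253), -0.40 with siRNA 2 (adjusted p = 0.244) and 0.88 between the siRNAs (0.48 to 1.28, adjusted p = 0.0953). AKR1C2 and AKR1C3 were singled out after their values were seen. A probe set annotated to both AKR1C2 and AKR1C1, 1555854_at, which the rule leaves out, read 445 and 474, 455 and 522, and 321 and 275. A further _x_at probe set of AKR1C2, 211653_x_at, read 7248 and 8415, 7409 and 6663, and 5122 and 5318, and 244266_at read 1.68 to 17.0 and was not tested.

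**Figure D3:**
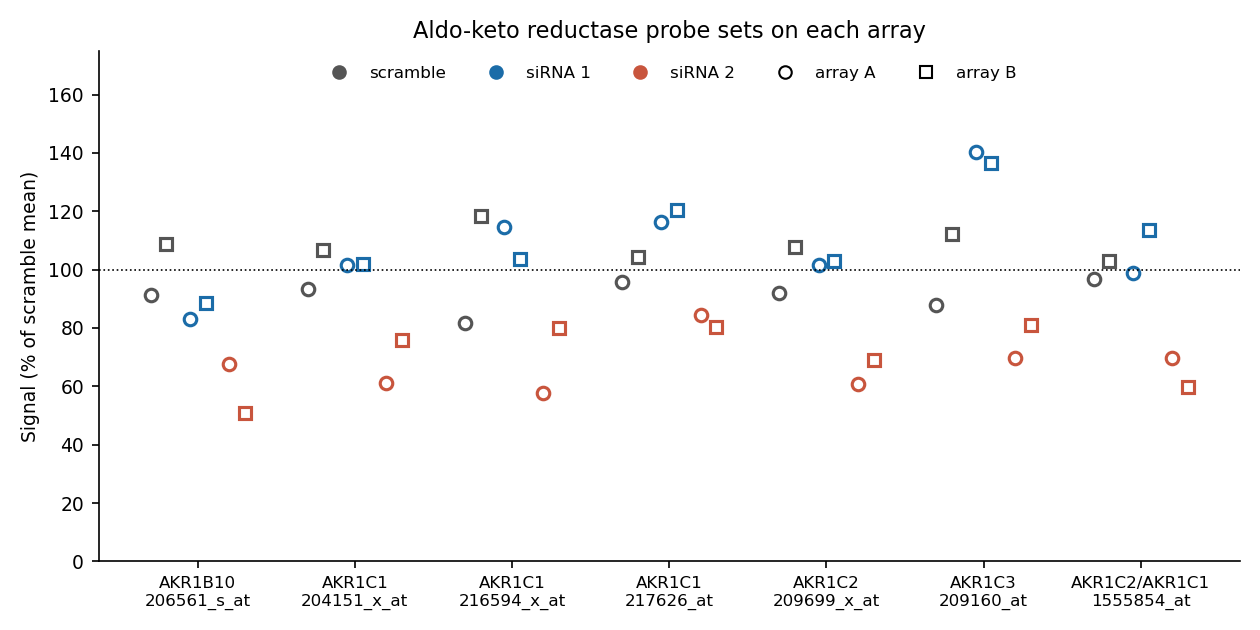
Signal on each array as a percentage of the mean of the scramble arrays (y axis, from 0; dotted line, 100%) for 7 aldo-keto reductase probe sets (x axis), coloured by group, with circles for array A and squares for array B. The siRNA 2 arrays lie lowest on the probe sets plotted, with AKR1B10 at a mean of 59.2% and AKR1C1 at 68.4% on 204151_x_at. The plot includes 1555854_at, which was not tested as it has several symbols. It leaves out the other untested probe sets and 211653_x_at.

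The members had the same order in the direct comparison of the siRNAs. All 9 genes and all 16 tested probe sets had a log2 difference above 0 between siRNA 1 and siRNA 2, where 48.8% of all genes and 50.8% of all probe sets did. In 8 of 9 genes both siRNA 1 arrays exceeded both siRNA 2 arrays, where this held for 24.2% of all genes, and it held for 15 of the 16 probe sets (24.6% of all probe sets). For 7 of 9 genes both siRNA 1 arrays exceeded both scramble arrays (26.7% of all genes) and for 1 both were below (22.7%). For siRNA 2 the counts were 1 above (28.4%) and 4 below (24%). OSGIN1, which passed the filter largely through siRNA 1, is in the 8 and 7 genes and the 15 probe sets. Without it, every siRNA 1 array was higher in 7 of 8 genes against siRNA 2 and in 6 of 8 against scramble. On their brightest probe sets NQO1 and GCLM stood above scramble with siRNA 1 and below it with siRNA 2 on every array. That was 2 of 9 genes against 3.33% of all genes. The other probe sets of NQO1 overlapped scramble with siRNA 2, and those of GCLM overlapped it with siRNA 1. Of the 9 genes, 6 were among the 3184 genes with a mean signal of at least 2134, of which 49% had a difference above 0 between the siRNAs. All 9 genes also had a difference above 0 with quantile normalization (median 0.28) or median centring (median 0.26). Without array B of siRNA 2, the array with the ACTB ratio of 12.4, it was again 9 of 9, with a median of 0.34. Without array A of siRNA 2 it was 8 of 9 (median 0.23) and without array A of siRNA 1 8 of 9 (median 0.29), HMOX1 being below 0 in both. The mean of all probe sets of a gene, untested ones included, turned GCLC to -0.52 and TXNRD1 to -0.40.

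The epithelial markers had the same order. All 8 had a difference above 0 between siRNA 1 and siRNA 2 (48.8% of all genes), with a median of 0.18. Between the siRNAs limma called 0 of them (0.212% of all genes). Against scramble, 4 of 8 were above 0 with siRNA 1 (52.2%) and 1 of 8 with siRNA 2 (52.4%). At an unadjusted p under 0.05, 4 were lower with siRNA 2 (8.76%) and 0 higher (12%). KRT8 had the lowest limma adjusted p with siRNA 2, 0.0558, at a log2 difference of -0.62. Their summed signal was 132956 to 137756 with scramble, 132731 to 138160 with siRNA 1, and 112886 to 120674 with siRNA 2. The summed signal of the 6 fibroblast markers was 5929 to 6223, 6607 to 7546 and 5763 to 5769.96 in the same order. That of the 3 blood cell markers was 76.4 to 106, 139 to 142 and 35.3 to 129, and that of the 4 endothelial markers 401 to 480.04, 329.6 to 398 and 321 to 392. The part of these markers, and of the ACTB ratio, in the differences of the NRF2 targets was not tested. In these bulk samples a lower share of cells with a high level and a lower level per cell cannot be told apart.

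Transcripts of the regulators of NRF2 did not pass the test in any contrast. NFE2L2 read 9711 and 8848 with scramble, 9438 and 9229.6 with siRNA 1, against 8128 and 8847 with siRNA 2, at log2 differences of 0.01 (-0.24 to 0.26, adjusted p = 0.971) and -0.13 (-0.37 to 0.12, adjusted p = 0.507). KEAP1 stood at 0.08 (adjusted p = 0.720) and 0.12 (adjusted p = 0.528), and CUL3 at 0.01 and -0.16 (adjusted p = 0.983 and 0.365). NFE2L1, which encodes the related factor NRF1, read 1933 and 1883 with scramble, 2429 and 2614 with siRNA 1, against 2449 and 2422 with siRNA 2, so that all 4 knockdown arrays were higher (0.40 and 0.35, adjusted p = 0.141 and 0.116). MAFF, a small MAF protein, stood at 0.39 and 0.24 (adjusted p = 0.244 and 0.355). Of the 12 control genes of the pathway listed, 10 were tested. In any of the 4 contrasts limma called 0 of them, against 0.212% to 0.597% of all genes. At an unadjusted p under 0.05, 4 were higher with siRNA 1 (9.55% of all genes), 1 with siRNA 2 (12%) and 0 between the siRNAs (9.16%), and 0 were lower. Their differences were above 0 in 10 of 10 with siRNA 1 (52.2% of all genes; median 0.18) and in 7 of 10 with siRNA 2 (52.4%; median 0.14).

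Among 26 tested genes of a wider list of NRF2 targets, limma called 0 in each contrast, against 0.212% to 0.597% of all genes. Their median difference was 0.07 with siRNA 1, -0.14 with siRNA 2 and 0.16 between the siRNAs. Between the siRNAs 21 of 26 had a difference above 0 (48.8% of all genes), 8 of them at an unadjusted p under 0.05 (9.16%). Of the other 5, 2 had such a p in the opposite direction (9.53%). AKR1C2 and AKR1C3, neighbours of the member AKR1C1, were among the 8. Signal of AKR1C1 can reach the _x_at probe set of AKR1C2. Against scramble, 4 were higher (9.55% of all genes) and 1 lower (6.65%) at that p with siRNA 1, and 2 higher (12%) and 5 lower (8.76%) with siRNA 2. EPHX1, the microsomal epoxide hydrolase, read 323 and 274 with scramble, 408 and 341 with siRNA 1, against 147 and 180.3 with siRNA 2. Its siRNA 1 arrays lay above and its siRNA 2 arrays below scramble, with a log2 difference of -0.86 with siRNA 2 (adjusted p = 0.0889) and 1.19 between the siRNAs (0.76 to 1.62, adjusted p = 0.0795). ALDH3A1, an aldehyde dehydrogenase, read 716 and 791, 909.9 and 716, and 469 and 495 in the same order (-0.64 with siRNA 2, adjusted p = 0.111). Both were called lower with siRNA 2 when limma used an intensity trend, at adjusted p = 0.0241 for EPHX1 (range over the alternatives 0.0241 to 0.271) and 0.0178 for ALDH3A1 (0.0178 to 0.310). With siRNA 2 that trend called 472 of all genes, against 76 in the main fit. ABCC3, an efflux pump for conjugates, was at 0.57 with siRNA 1 and -0.28 with siRNA 2 (adjusted p = 0.204 and 0.374). The related pump gene ABCC4 had the opposite order, reading 968 and 954 with scramble, 707 and 666 with siRNA 1, against 1187 and 1145 with siRNA 2 (-0.49 and 0.28, adjusted p = 0.0982 and 0.157; -0.76 between the siRNAs, adjusted p = 0.0587).

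SLC7A11, the cystine carrier that feeds glutathione synthesis and is also an ATF4 target, stood above scramble with both siRNAs. It read 1393 and 1567 with scramble, 2594 and 2362 with siRNA 1, against 2330.1 and 2607 with siRNA 2. All 4 knockdown arrays lay above both scramble arrays and the siRNAs overlapped. Its estimated log2 difference was 0.74 with each siRNA (0.45 to 1.04 and 0.44 to 1.04), at adjusted p = 0.0851 and 0.0695, and 0.01 between them (-0.29 to 0.30). Both differences were called by limma when it used an intensity trend (adjusted p = 0.00182 and 0.00163, within ranges over the alternatives of 0.00182 to 0.310 and 0.00163 to 0.231). GSR, glutathione reductase, was at -0.33 and -0.25, with 1105 and 1638 on the siRNA 1 arrays, and did not pass the test (adjusted p = 0.525 and 0.577). With siRNA 1 it ran from -0.61 to -0.04 with each array left out in turn.

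Antioxidant enzymes outside the NRF2 lists were mostly below scramble with either siRNA, without passing the test. Of 17 tested, limma called 0 in each contrast, against 0.212% to 0.597% of all genes. With siRNA 1, 13 were below 0 and 4 above (52.2% of all genes were above). With siRNA 2, 15 were below 0 and 2 above (52.4%). Between the siRNAs 10 of 17 were above 0 (median 0.01), near the 48.8% of all genes. At an unadjusted p under 0.05, 0 were higher (9.55% of all genes) and 3 lower (6.65%) with siRNA 1, and 2 higher (12%) and 4 lower (8.76%) with siRNA 2. The glutaredoxin genes GLRX2 and GLRX, whose products reduce glutathionylated proteins, were lower than scramble on all 4 knockdown arrays, at -0.40 and -0.53 for GLRX2 (adjusted p = 0.216 and 0.0995) and -0.34 and -0.49 for GLRX (adjusted p = 0.277 and 0.124). CAT, catalase, stood at 0.25 with siRNA 1 and -0.10 with siRNA 2 (adjusted p = 0.318 and 0.622), and GSS, glutathione synthetase, at 0.13 and -0.05 (adjusted p = 0.516 and 0.791). TXNRD2, the mitochondrial thioredoxin reductase, was at -0.44 and -0.08 (adjusted p = 0.327 and 0.840). GPX3, a secreted glutathione peroxidase, was at -0.20 and 0.48 (adjusted p = 0.317 and 0.0767) on signals of 46.4 to 77.5, and passed the filter only through its siRNA 2 arrays (77.5 and 75.02), the group in which it was high. MSRB2, a methionine sulfoxide reductase, was at 0.05 and 0.26 (adjusted p = 0.800 and 0.157).

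**Figure D4:**
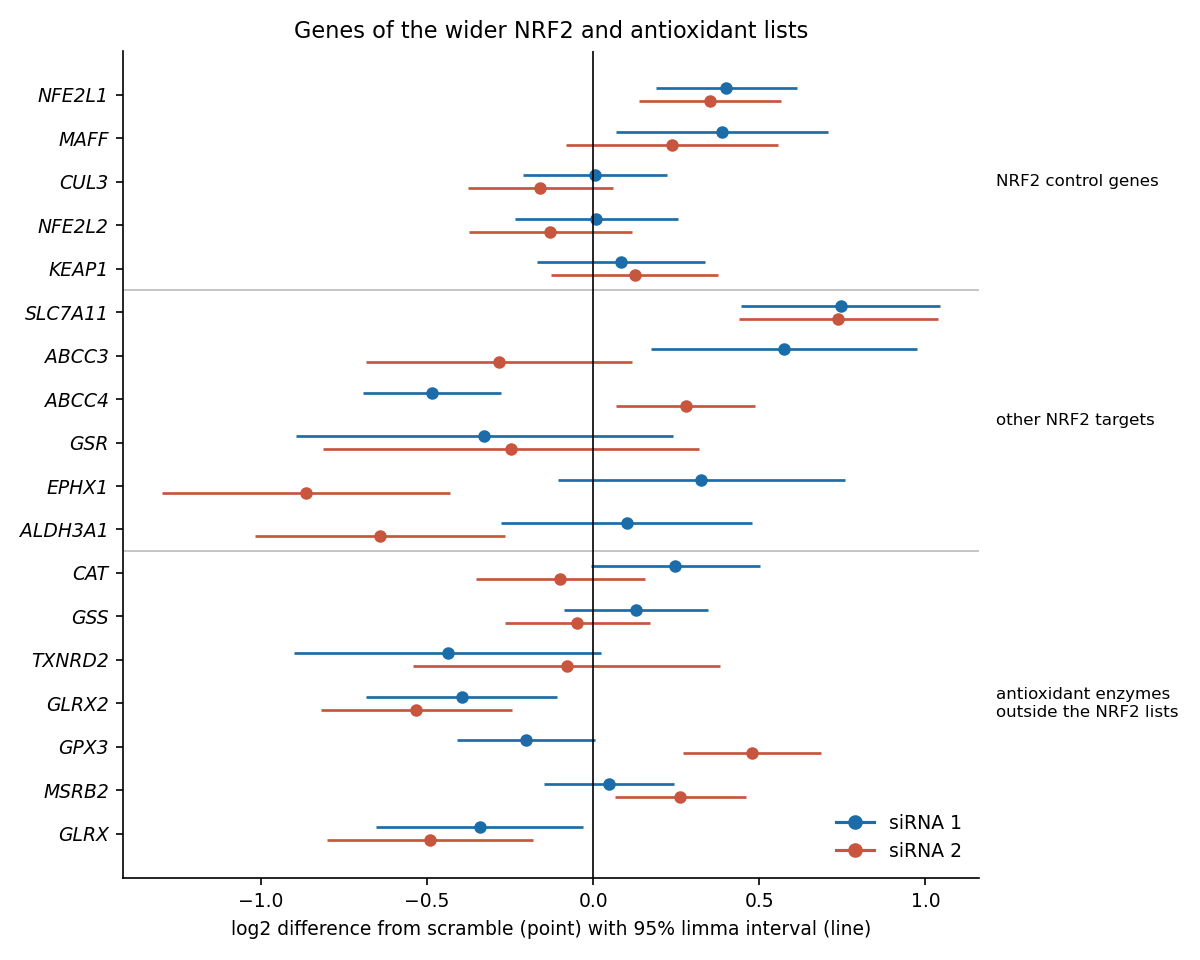
Log2 difference from scramble (x axis, points) with 95% limma intervals (lines) for siRNA 1 and siRNA 2, for the named genes (y axis) of the 3 wider lists. SLC7A11 lies at 0.74 with both siRNAs, EPHX1 and ALDH3A1 at -0.86 and -0.64 with siRNA 2, and NFE2L2 at 0.01 and -0.13.

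The genes whose pattern over the 6 arrays was most like that of OSGIN1, the member with the widest span of group means, were DRG2, PIAS3, STRN4, SUN2 and POM121C, with Pearson r from 0.979 to 0.989 over 12734 genes compared. These arrays share their groups and OSGIN1 is dim, so the values describe likeness on these arrays alone. Among the members themselves r over the 6 arrays ran from -0.67 for HMOX1 with AKR1B10 to 0.96 for TXNRD1 with OSGIN1, with 0.95 for GCLC with GCLM.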

How the data were processed

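RNA of 6 arrays of RT-112 cells in 3 groups of 2 was analysed. The authors deposited 1 linear signal intensity for each of 54675 probe sets, made with Affymetrix Expression Console per the submitters' processing notes. Its version and algorithm are not stated in any source read. Groups came from the sample titles, of which 1 spells the silenced gene differently and was assigned by its siRNA name. The platform's probe table gave the symbols, and 41037 of 41091 matched RefSeq by Entrez identifier, with 0 changed. Differences were computed with limma 3.58.1 (R 4.3.3) on log2(signal + 1), fitting 3 group means to the 6 arrays with 3 residual degrees of freedom, for 12735 genes and for 23969 probe sets. The fit was tested on simulated data. Python 3.11.15 and matplotlib 3.10.9 drew the plots. The members and lists were chosen with earlier results of these data known. The text names all members, genes of the other lists called in any contrast, the 2 highest and 2 lowest of each list with each siRNA, NFE2L2, KEAP1 and PPP2R2A, and the 5 genes most like the member with the widest span. BACH1, AKR1C2, AKR1C3 and single marker genes were added after their values were seen. In all, 14 alternatives were run for genes and 13 for probe sets: scaling, block, variance trend, pseudocount, filter, choice of probe set and each array left out.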

Additional observations from a re-analysis of the deposited data

Results flagged for a closer look

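On a single probe set each of NQO1 and GCLM, both siRNA 1 arrays lay above and both siRNA 2 arrays below both scramble arrays. The same was seen on 202922_at of GCLC and 217626_at of AKR1C1. The siRNAs thus stood on opposite sides of scramble. Of the 9 genes, on the brightest probe set of each, 2 showed this arrangement, against 3.33% of all genes tested. The share over all probe sets was not computed, so no count over probe sets is set against a background. The log2 difference between siRNA 1 and siRNA 2 was 0.23 for NQO1 (limma adjusted p = 0.223) and 0.26 for GCLM (adjusted p = 0.226). On further probe sets it was 0.19 for 202922_at of GCLC (adjusted p = 0.395) and 0.52 for 217626_at of AKR1C1 (adjusted p = 0.137). The other probe sets of NQO1 and GCLM and the brightest of GCLC and AKR1C1 did not show the arrangement. The test of the difference between the siRNAs called none of the 4. A group of 2 arrays allows no test of an outlying array.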

How the results depend on the processing

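The number of members called was 0 in every contrast and under every alternative, with 1 exception: an intensity trend called 1 gene and 1 probe set with siRNA 2, AKR1B10 in both. With siRNA 2 the trend called 472 genes and 801 probe sets in all, against 76 and 1 in the main fit. Leaving out 1 array left 1 array in its group, which was assumed to vary like the others. No weight is put on the calls of those fits or on the lack of them. With the replicate block on the array letters limma called 0 of all genes in every contrast. The same held without the filter and with the mean of all probe sets. Of all genes it also called 0 between the siRNAs with median centring, and 0 with siRNA 2 on _at probe sets alone. The 0 for the members was therefore fixed in these settings and shows no stability there. The letters did not pair the arrays, since deviations from the group means correlated at -0.0309 to 0.0383. Of the values of single genes, 803 kept their direction and side of the threshold, 6 passed it newly, 20 (all of PPP2R2A) lost it and 25 reversed; the cause was not tested. The mean of all probe sets reversed GCLC (-0.54 with siRNA 1, -0.28 for the mean of both siRNAs, -0.52 between the siRNAs), AKR1C1 with siRNA 1 (-0.27), TXNRD1 between the siRNAs (-0.40) and, with siRNA 2, ABCC4 (-0.14), AKR1C2 (0.10) and CUL3 (0.073). For the mean of both siRNAs, probe sets of the _at type alone gave -0.035 for GCLC, and quantile normalization and centring gave 0.027 and 0.00991 for GCLM. With each array left out in turn, AKR1C1 with siRNA 1 ran from -0.066 to 0.12. With siRNA 2, GCLC ran from -0.23 to 0.031, TXNRD1 from -0.076 to 0.099, SRXN1 from -0.22 to 0.13 and OSGIN1 from -0.55 to 0.91. For the mean of both siRNAs, GCLC ran from -0.00047 to 0.13, GCLM from -0.035 to 0.0259 and SRXN1 from -0.0022 to 0.17, and between the siRNAs HMOX1 ran from -0.069 to 0.19. The knockdown of PPP2R2A was not called with the replicate block (limma adjusted p = 0.158 and 0.129) or without the filter (0.156 and 0.178). Nor was it called with the mean of its probe sets (limma adjusted p = 0.154 and 0.160). With siRNA 2 it was also not called with median centring (0.0631) or with _at probe sets alone (0.0593).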
